A study of Homo sapiens with 6 samples.

Results

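The 6 genes described here are NFE2L2, which encodes the transcription factor NRF2, and 5 enzymes of the antioxidant defence, TKT, CAT, GPX4, GSR and HMOX1. They were taken by gene symbol from the platform annotation, each had 1 row on the array, and they are 6 of the 14779 named genes tested. RNA came from BE(2)-C, a long-established neuroblastoma line of human origin, after 2 days with 10 µM NCT-503 in 3 samples or with the vehicle DMSO in 3 samples. The compound NCT-503 inhibits PHGDH, the first enzyme of serine synthesis. The labels call the samples of a group independent but do not say what separated them, so the p-values cover only the spread among these 3 samples per group, which may be technical. All 6 samples are the same line in the same medium with serum, and total RNA of each went to 1 Affymetrix whole-transcript array.

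NRF2 switches on genes of glutathione, thioredoxin, NADPH and heme metabolism through a DNA element called the antioxidant response element. In unstressed cells the adaptor KEAP1 and the ubiquitin ligase scaffold CUL3 hold NRF2 down by marking the protein for degradation, so its activity is set largely after translation and is not measured by its transcript. The enzymes act at different points. Catalase and GPX4 remove hydrogen peroxide and lipid peroxides, GSR regenerates glutathione, transketolase works in the pentose phosphate pathway that feeds NADPH production, and heme oxygenase breaks down heme.

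In NCT-503-treated cells all 6 transcripts were higher, by between 1.32-fold for GSR and 1.67-fold for TKT. Each passed an adjusted p under 0.05 in limma's moderated test with Benjamini-Hochberg adjustment over the 14779 genes, in which 16.4% of all genes were called higher and 17.1% lower (2419 and 2534 genes, or 3345 and 2189 when each array was centred on its 75th percentile). In all 6 genes the lowest NCT-503 array lay above the highest DMSO array, which was so for 25.4% of all genes, while the reverse held for 22.4%. The genes were chosen with earlier results of these data known, so this count says nothing about how often antioxidant genes rose. HMOX1 was the least secure of them, because its call was lost when any of 3 single arrays was left out. Changes are log2 differences of the deposited values, NCT-503 minus DMSO, and a fold is 2 to the power of that change.

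**Figure D1:**
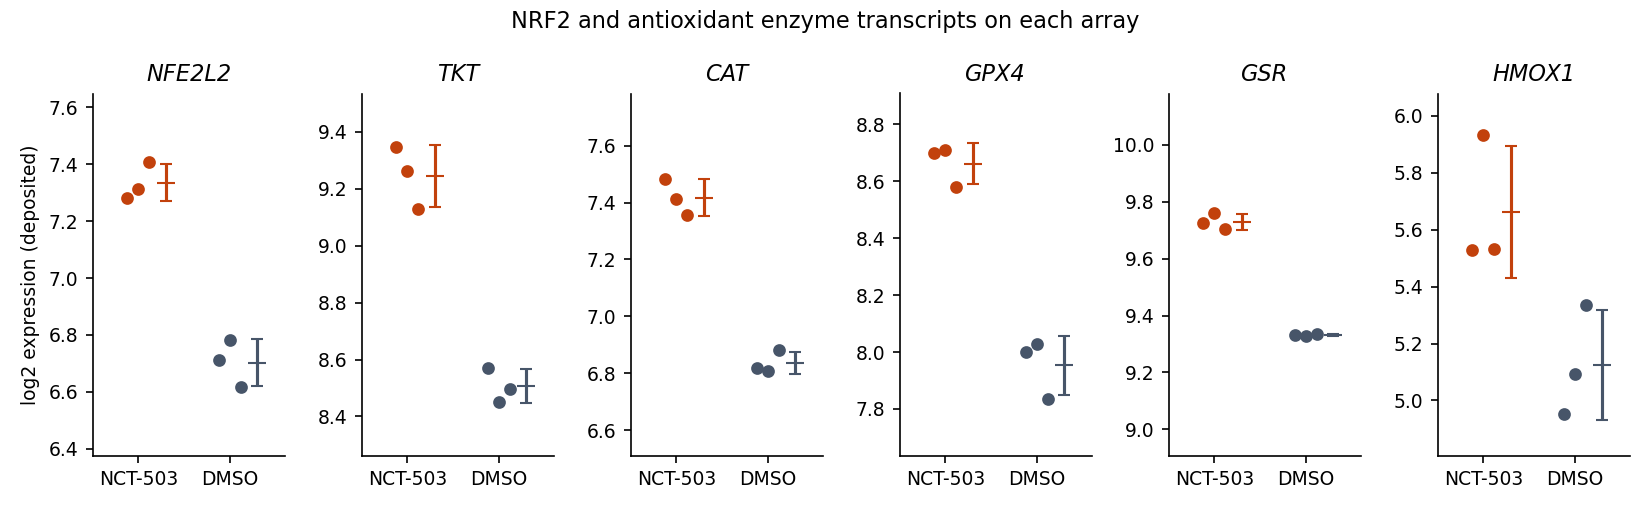
Deposited log2 expression of each of the 6 genes on each array, with NCT-503 arrays a, b and c in orange and DMSO arrays a, b and c in grey; bars are the mean ± SD of 3 arrays, and all panels span the same log2 range. The gap between the nearest arrays of the groups is 0.37 or more in NFE2L2, TKT, CAT, GPX4 and GSR, whereas in HMOX1 it is 0.19, with SDs of 0.23 for NCT-503 and 0.19 for DMSO.

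The factor itself comes first. NFE2L2 read 7.28, 7.31 and 7.41 on the NCT-503 arrays a, b and c, and 6.71, 6.78 and 6.62 on the DMSO arrays. The NCT-503 arrays all lay above the DMSO arrays, with 0.50 between the nearest arrays of the groups, against SDs of 0.07 with NCT-503 and 0.08 with DMSO. The change was 0.63 ± 0.08 (SE, 3 arrays per group, adjusted p = 0.00114), or 1.55-fold with a 95% interval of 1.36 to 1.77.

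TKT, transketolase, which exchanges carbon between the pentose phosphate pathway and glycolysis, had the largest change of the enzymes. It read 9.35, 9.26 and 9.13 with NCT-503 and 8.57, 8.45 and 8.50 with DMSO. The groups did not overlap, and the spread was wider among the treated arrays (SD 0.11) than among the controls (SD 0.06). The change was 0.74 ± 0.09 (SE, adjusted p = 0.000749).

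CAT, catalase, the peroxisomal enzyme that splits hydrogen peroxide into water and oxygen, read 7.48, 7.41 and 7.36 with NCT-503 and 6.82, 6.81 and 6.88 with DMSO. All treated arrays stood above all controls, by at least 0.47. The change was 0.58 ± 0.07 (SE, adjusted p = 0.00114), or 1.50-fold with a 95% interval of 1.33 to 1.69.

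GPX4, the selenium-containing peroxidase that reduces lipid peroxides in membranes and so guards cells against ferroptosis, read 8.70, 8.71 and 8.58 with NCT-503 and 8.00, 8.03 and 7.84 with DMSO. In both groups array c was the lowest, and the groups did not overlap. The change was 0.71 ± 0.09 (SE, adjusted p = 0.000921).

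GSR, glutathione reductase, which uses NADPH to turn oxidised glutathione back into its reduced form, read 9.73, 9.76 and 9.70 with NCT-503 and 9.33 on each of the 3 DMSO arrays. Its change was the smallest of the 6 at 0.40 ± 0.07 (SE, adjusted p = 0.00398), but the arrays of a group were closest together for this gene, with an SD of 0.03 for NCT-503 and 0.003 for DMSO. The SE comes from limma's moderated variance, which is larger than the spread these arrays show.

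HMOX1, heme oxygenase 1, the inducible enzyme that degrades heme to biliverdin, iron and carbon monoxide, read 5.53, 5.93 and 5.53 with NCT-503 and 4.95, 5.09 and 5.33 with DMSO. NCT-503 b stood above the other treated arrays, and DMSO c came within 0.19 of the lowest treated array. The change was 0.54 ± 0.15 (SE, adjusted p = 0.0269), with a 95% interval of 1.14-fold to 1.84-fold. The call was lost without DMSO a (change 0.45, adjusted p = 0.0860), without DMSO b (0.52, adjusted p = 0.0713) and without NCT-503 b (0.40, adjusted p = 0.0613), and it was also lost without moderation of the variance (adjusted p = 0.102).

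**Figure D2:**
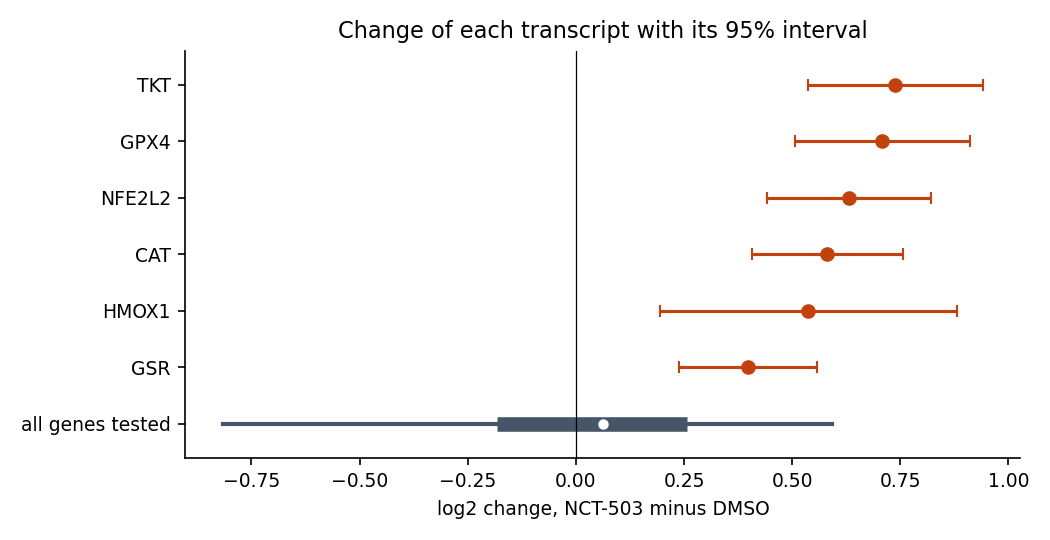
Log2 change, NCT-503 minus DMSO, of each gene with limma's 95% interval (points and thin bars, 3 arrays per group), above the distribution over all 14779 genes tested (white dot, median; thick bar, 25th to 75th percentile; thin line, 5th to 95th percentile). TKT, GPX4 and NFE2L2 lie above the 95th percentile of 0.59, and the interval of HMOX1 is the widest.

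In order of the change, TKT was followed by GPX4, NFE2L2, CAT, HMOX1 and GSR. The 95% intervals overlapped in all 15 pairs of the 6 genes, so the order is a description of the estimates. Over all genes tested the median change was 0.06 and the 95th percentile 0.59, and TKT ranked 391 among the 2419 genes called higher, GPX4 440, NFE2L2 603, CAT 749, HMOX1 914 and GSR 1643. Each of the 5 genes other than HMOX1 passed the threshold under all 18 alternative settings, with NFE2L2 between 0.59 and 0.70, TKT between 0.69 and 0.81, CAT between 0.55 and 0.65, GPX4 between 0.65 and 0.78 and GSR between 0.35 and 0.47.

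**Figure D3:**
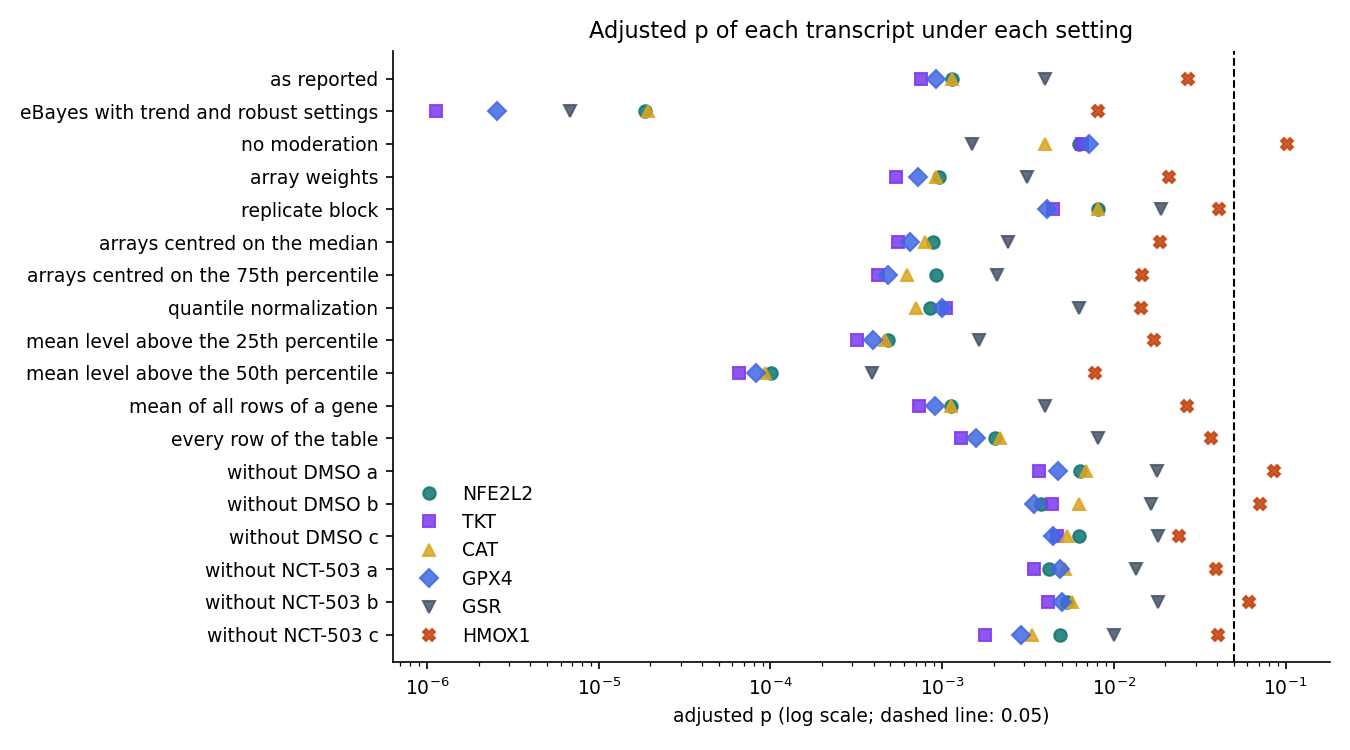
Adjusted p of each of the 6 genes (horizontal log axis, dashed line at 0.05) as reported and under 17 alternative settings of scaling, filter, model and arrays; the stricter threshold of 0.01 is not a separate row. HMOX1 crosses the line without moderation and without DMSO a, DMSO b or NCT-503 b, and the other 5 genes stay left of it in all rows.

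The sequences around the gene starts show what a short search for NRF2's own element finds. The reference table of RefSeq promoters (GRCh38.p14, 250 bases before to 50 bases after each start) held 7 windows for 4 of the genes: NFE2L2 (2 windows), TKT (1), CAT (1) and GPX4 (3). GSR and HMOX1 are named only. The core of the antioxidant response element was searched as TGACNNNGC on both strands, and it is present in 13.3% of the 35116 windows of all genes. None of the 7 windows held it. The E-box CACGTG (7.26% of all windows) and the C/EBP-ATF element TGATGNAAT (0.991%) were not found in them either. The CCAAT box was searched as CCAAT on both strands and is present in 34.6% of all windows. It occurred 5 times in the CAT window, which 0.359% of all windows equal or exceed. Each of the overlapping first and second GPX4 windows held it 3 times, which 3.26% equal or exceed. The TKT window held 1, and both NFE2L2 windows and the third GPX4 window held 0. One window per gene is shown, 5′ to 3′ on the gene's own strand, with the CCAAT letters in capitals (ATTGG where the match is on the other strand).
NFE2L2, chr2:177264678-177264977, minus strand: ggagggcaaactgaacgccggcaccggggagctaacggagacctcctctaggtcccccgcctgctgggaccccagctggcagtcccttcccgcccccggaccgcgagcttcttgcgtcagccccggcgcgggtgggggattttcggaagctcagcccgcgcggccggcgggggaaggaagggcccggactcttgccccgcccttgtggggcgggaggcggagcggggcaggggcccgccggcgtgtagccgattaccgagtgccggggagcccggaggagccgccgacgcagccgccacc
TKT, chr3:53255973-53256272, minus strand: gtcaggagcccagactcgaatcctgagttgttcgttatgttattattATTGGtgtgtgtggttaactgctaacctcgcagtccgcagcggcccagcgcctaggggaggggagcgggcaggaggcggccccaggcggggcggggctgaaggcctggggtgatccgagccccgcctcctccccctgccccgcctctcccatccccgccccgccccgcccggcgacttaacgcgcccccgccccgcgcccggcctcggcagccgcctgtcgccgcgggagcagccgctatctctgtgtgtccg
CAT, chr11:34438684-34438983, plus strand: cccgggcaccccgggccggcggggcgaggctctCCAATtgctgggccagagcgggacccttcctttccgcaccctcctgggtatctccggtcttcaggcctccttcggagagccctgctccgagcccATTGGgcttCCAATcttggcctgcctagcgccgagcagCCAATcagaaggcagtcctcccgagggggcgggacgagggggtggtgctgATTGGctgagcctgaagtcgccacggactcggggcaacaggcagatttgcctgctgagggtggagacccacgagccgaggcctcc
GPX4, chr19:1103744-1104043, plus strand: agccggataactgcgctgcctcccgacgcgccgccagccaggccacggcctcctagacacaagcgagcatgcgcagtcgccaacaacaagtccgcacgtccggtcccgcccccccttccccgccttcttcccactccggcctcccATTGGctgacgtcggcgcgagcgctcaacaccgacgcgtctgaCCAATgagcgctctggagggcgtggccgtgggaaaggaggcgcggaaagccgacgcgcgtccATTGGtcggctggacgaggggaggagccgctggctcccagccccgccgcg
The windows were rich in G and C, with 75% in the NFE2L2 window shown, 70.7% in TKT, 68% in CAT and 70.7% in GPX4, against a median of 58.7% over all windows. A match is a run of letters and not a measured binding site, and absence covers only these 300 bases.

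The genes that control NRF2 moved in both directions. Of 11 measured of 16 listed, 2 rose and 5 fell, with a median change of -0.24 against 0.06 over all genes. That is 63.6% called, against 33.5% of all genes tested. The list was chosen with earlier results of these data known and was not tested as a set. NFE2L1, the related factor that also binds the antioxidant response element, read 9.99, 9.95 and 9.75 with NCT-503 and 8.79, 8.81 and 8.79 with DMSO, a change of 1.10 ± 0.09 (SE, adjusted p = 0.000161). SQSTM1, the autophagy receptor p62 that can draw KEAP1 away from NRF2, rose by 0.72 ± 0.09 (adjusted p = 0.000931).

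CUL3, the scaffold of the ligase that marks NRF2, fell by 0.86 ± 0.08 (adjusted p = 0.000307), with 7.70, 7.78 and 7.84 on the NCT-503 arrays and 8.55, 8.69 and 8.67 on the DMSO arrays. EP300, an acetyltransferase that serves NRF2 and many other factors as a coactivator, fell by 1.01 ± 0.07 (adjusted p = 0.000113). The other falls, named to complete the count after their values were seen, were BTRC (-0.57), a substrate adaptor of a second ligase route, the kinase GSK3B (-0.35), which acts in that route, and the coactivator CREBBP (-0.30), whose call was lost without DMSO b (adjusted p = 0.0507). KEAP1 itself did not pass (-0.24 ± 0.13, adjusted p = 0.187), with a 95% interval of -0.54 to 0.06. Its change was -0.14 without NCT-503 c and -0.16 without DMSO b, but -0.32 without NCT-503 b and -0.32 without DMSO c. MAFG, a small partner protein of NRF2 on DNA, did not pass (-0.0048, adjusted p = 0.967), and its estimate turned positive under each of the other scalings and without DMSO a or c or NCT-503 b (up to 0.018).

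Other textbook targets of NRF2 did not share one direction. Of 11 measured of 29 listed, 2 rose, 2 fell and 7 did not pass, with a median change of 0.08, and 36.4% of the 11 were called against 33.5% of all genes. PGD, an NADPH-producing enzyme of the pentose phosphate pathway, rose by 0.53 ± 0.08 (adjusted p = 0.00218), and TALDO1, transaldolase, by 0.27 ± 0.08 (adjusted p = 0.0365). CBR1, a carbonyl reductase, fell by 0.38 ± 0.08 (adjusted p = 0.0105), and PRDX1, a peroxiredoxin that removes peroxides, fell by 0.36 ± 0.10 (adjusted p = 0.0248).

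TXNRD1, thioredoxin reductase, read 7.57, 7.56 and 7.54 with NCT-503 and 7.55, 7.77 and 7.61 with DMSO, a change of -0.09 with a 95% interval of -0.28 to 0.11 (adjusted p = 0.453). That change was -0.13 without DMSO a, -0.025 without DMSO b and -0.019 with 75th-percentile centring. SRXN1, sulfiredoxin, which repairs peroxiredoxins, had a change of 0.03 with an interval of -0.24 to 0.30 (adjusted p = 0.862), and the estimate was below 0 without DMSO c, without either of NCT-503 a and c (down to -0.030) or with array weights (-0.010). In both genes the groups overlapped. The TXNRD1 interval lies below those of all 6 genes described. The SRXN1 interval overlaps those of GSR (lower bound 0.24) and HMOX1 (lower bound 0.19). Those 6 genes were chosen with earlier results of these data known, and a difference from them was not tested. NQO1, GCLC, GCLM, SLC7A11, FTL and FTH1 were not analysed here, so several of the usual NRF2 readouts are missing from this count. The TALDO1 call was lost without DMSO a, b or c or NCT-503 a or b (adjusted p from 0.0593 to 0.103) and with the replicate letter as a block (0.0828), and the PRDX1 call without DMSO b or c or NCT-503 b or c (0.0535 to 0.0768).

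**Figure D4:**
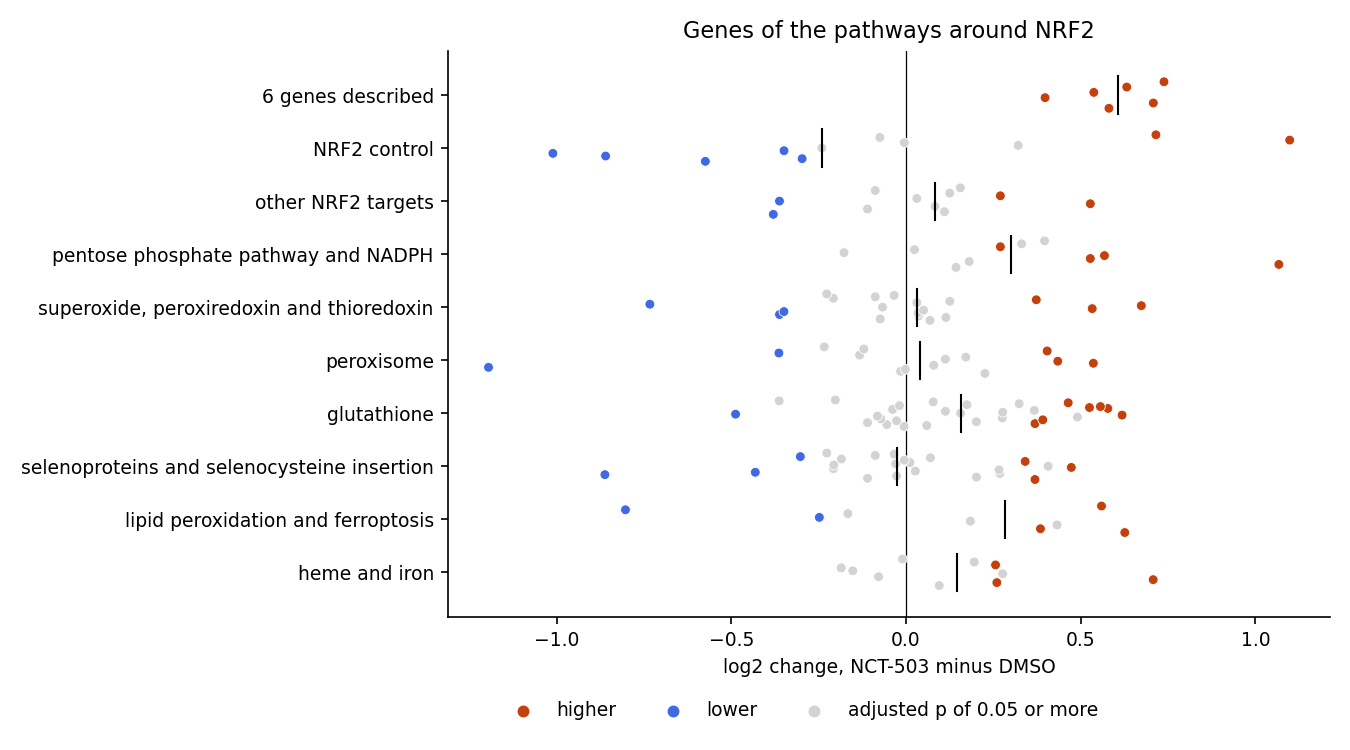
Log2 change, NCT-503 minus DMSO, of every measured gene of the 9 pathway lists and of the 6 genes described; each point is 1 gene (orange, called higher; blue, called lower; pale, adjusted p of 0.05 or more) and black bars are list medians. The NRF2 control genes run from -1.01 to 1.10 with a median of -0.24. Neither the pentose phosphate and NADPH list nor the heme and iron list has a gene called lower.

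TKT belongs to the pentose phosphate pathway. Of 10 measured genes of that pathway and of NADPH supply (15 listed), 4 rose, 0 fell and 6 did not pass in limma at an adjusted p under 0.05, with a median change of 0.30. That is 40% called, against 33.5% of all genes tested. With median centring of the arrays 6 rose, and with 75th-percentile centring 7. NADK2, the mitochondrial NAD kinase that makes NADP, read 8.21, 8.20 and 8.27 with NCT-503 and 7.18, 7.09 and 7.21 with DMSO, a change of 1.07 ± 0.07 (adjusted p = 0.000102). PGLS, the lactonase of the pathway's oxidative branch, rose by 0.57 ± 0.11 (adjusted p = 0.00772), and PGD and TALDO1 completed the rises. The TKT relatives TKTL1 (0.33, adjusted p = 0.0749) and TKTL2 (0.40, adjusted p = 0.0716), named after their values were seen, did not pass. Their mean levels were low, at percentiles 25.2 and 4.7 over all genes tested. TKTL1 passed without DMSO a (0.44, adjusted p = 0.0342), TKTL2 passed without NCT-503 c (0.55, adjusted p = 0.0103), and both passed with 75th-percentile centring. The TALDO1 call was lost in 5 of the 6 fits that left out 1 array, as given above.

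Of 19 measured superoxide, peroxiredoxin and thioredoxin genes, 3 rose and 3 fell, 31.6% called against 33.5% of all genes tested. PRDX6, a peroxiredoxin that also reduces phospholipid peroxides, rose by 0.53 ± 0.08 (adjusted p = 0.00197), SESN2, a stress-induced sestrin, by 0.67 ± 0.09 (adjusted p = 0.00119) and TXN2, mitochondrial thioredoxin, by 0.37 ± 0.10 (adjusted p = 0.0239). SESN3 fell by 0.73 ± 0.09 (adjusted p = 0.00116), as did PRDX1 and the mitochondrial PRDX3 (-0.35, named to complete the count). Without DMSO b or c or NCT-503 a or b, both the TXN2 call (adjusted p from 0.0623 to 0.0740) and the PRDX3 call (0.0515 to 0.0600) were lost. SOD1 and SOD2 were not analysed here.

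Of 14 measured peroxisome genes, 3 rose and 2 fell, with a median change of 0.04. Thus 35.7% were called, against 33.5% of all genes tested. PEX14 (0.54 ± 0.08), PEX16 (0.43 ± 0.10) and PEX5 (0.40 ± 0.08) rose; PEX5 is the receptor that carries catalase and other proteins to the peroxisome and PEX14 its docking partner. PEX11A, which acts in peroxisome division, fell by 1.20 ± 0.29 (adjusted p = 0.0179), and its treated arrays were far apart at 4.63, 3.43 and 3.54, against 5.04, 5.09 and 5.06 with DMSO. PEX3 (-0.36, named to complete the count) also fell. Calls were lost without DMSO a for PEX11A (adjusted p = 0.0506) and PEX16 (0.0519), without DMSO c for PEX16 (0.0532), without DMSO b for PEX3 (0.0507) and when NCT-503 c was dropped for PEX11A (0.0629).

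Of 29 measured glutathione genes other than GSR and GPX4 (37 listed), 7 rose, 1 fell and 21 did not pass, 27.6% called against 33.5% of all genes tested, with a median change of 0.16 (11 rose with 75th-percentile centring, and 3 to 6 when single arrays were left out). The glutathione transferases GSTM4 and GSTM5, close paralogs whose probes may not separate them, rose by 0.58 ± 0.07 (adjusted p = 0.00112) and 0.53 ± 0.08 (adjusted p = 0.00239). The mean level of GSTM5 was low, at the 18th percentile over all genes tested. GSTA3 (0.62, adjusted p = 0.0363), also low at the 22nd percentile, and GSTO1 (0.56, adjusted p = 0.0211) rose too. Their calls were lost in limma without DMSO a or b or any NCT-503 array for GSTA3 (adjusted p from 0.0547 to 0.108) and without DMSO a or c or NCT-503 a or b for GSTO1 (0.0585 to 0.0643).

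GSTA4, the transferase that clears the lipid peroxidation product hydroxynonenal, was the fall (-0.49, adjusted p = 0.00252), named to complete the count. GSS, glutathione synthetase, did not pass (0.28 ± 0.13, adjusted p = 0.145), with a change of 0.16 (adjusted p = 0.340) without NCT-503 a and 0.41 (adjusted p = 0.0190) without NCT-503 c. Among the selenium peroxidases related to GPX4, GPX1 rose by 0.37 ± 0.11 (adjusted p = 0.0416). Its call was lost when DMSO a, DMSO c or any NCT-503 array was left out (adjusted p from 0.0568 to 0.124).

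GPX4 needs selenocysteine, which is inserted by a dedicated machinery. Of 23 measured selenoprotein and selenocysteine insertion genes, 3 rose and 3 fell, with a median change of -0.03. Here 26.1% were called, against 33.5% of all genes tested. SELENOK, a selenoprotein of the endoplasmic reticulum, rose by 0.47 ± 0.09 (adjusted p = 0.00731), as did GPX1 and SELENOV (0.34, named to complete the count). MSRB1, a methionine sulfoxide reductase, fell by 0.86 ± 0.12 (adjusted p = 0.00185) and SECISBP2, which reads the selenocysteine signal in messenger RNAs, by 0.43 ± 0.07 (adjusted p = 0.00403). TRNAU1AP (-0.30, named to complete the count), a protein of the selenocysteine tRNA complex, was the third fall. The SELENOV call was lost without any DMSO array or NCT-503 a or b (adjusted p from 0.0666 to 0.114), that of TRNAU1AP without DMSO a or c or NCT-503 a or b (0.0787 to 0.116) and under each other scaling (0.0647 to 0.105), and that of GPX1 as given above.

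Of 8 measured genes of lipid peroxidation and ferroptosis, the process GPX4 opposes, 3 rose and 2 fell. The share called was 62.5%, against 33.5% of all genes tested, and the median change was 0.28. With quantile normalization, and also without DMSO b, 2 rose and 1 fell. This list too was chosen with earlier results of these data known. ACSL4, which loads polyunsaturated fatty acids for membrane lipids, rose by 0.63 ± 0.08 (adjusted p = 0.00123) and NCOA4, the receptor that delivers ferritin to lysosomes, by 0.56 ± 0.07 (adjusted p = 0.00127). ALOX12, a lipoxygenase, rose by 0.38 ± 0.11 (adjusted p = 0.0318), a call lost without DMSO b or c or NCT-503 a or b (0.0869 to 0.0994). Its mean level was low, at the 24th percentile over all genes tested. LPCAT3, which inserts polyunsaturated chains into phospholipids, fell by 0.80 ± 0.08 (adjusted p = 0.000402), and DHODH (-0.25, named to complete the count), whose product helps keep mitochondrial lipids reduced, fell too. The DHODH call was lost without any DMSO array or NCT-503 b or c (0.0756 to 0.135) and under each other scaling (0.0791 to 0.178).

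HMOX1 opens heme breakdown, and biliverdin is among its products. Of 10 measured heme and iron genes, 3 rose and 0 fell in limma at an adjusted p under 0.05. The share called was 30%, against 33.5% of all genes tested. BLVRB, biliverdin reductase B, read 6.21, 6.17 and 6.27 with NCT-503 and 5.32, 5.55 and 5.65 with DMSO, a change of 0.71 ± 0.10 (adjusted p = 0.00176). BLVRA (0.26, adjusted p = 0.0267) and the transferrin receptor TFR2 (0.26, adjusted p = 0.0456) rose too. The constitutive heme oxygenase HMOX2 did not pass (-0.15 ± 0.07, adjusted p = 0.149). The BLVRA call was lost without any DMSO array or NCT-503 a or b (adjusted p from 0.0541 to 0.0845) and the TFR2 call without any of the 6 arrays (0.0609 to 0.127). With the replicate letter as a block BLVRB alone of the 10 was called.

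By the root mean square difference over the 6 arrays, each gene centred on its own mean, the 3 genes most like NFE2L2 were LTA4H, FOXJ2 and CCDC43 (0.0199 to 0.0299 log2 units). Those most like TKT were GDAP1L1, CIDECP1 and PRKD2 (0.0312 to 0.0403), and those most like CAT were FLOT1, SGF29 and BNIP1 (0.0269 to 0.0275). RBM22, BUD31 and ARAF were nearest to GPX4 (0.0227 to 0.0338) and HDLBP, SEC11A and CHCHD3 to GSR (0.0235 to 0.0263). HMOX1 had the most distant neighbours, HOXC10, DLX5 and U2AF1L4 (0.0515 to 0.0687). None of the 6 genes was among the 3 nearest of another.

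The line was checked against its markers. Of 12 neuroblastoma markers 9 were measured, with 3 called higher and 3 lower. That is 66.7% called, against 33.5% of all genes tested. CHGA fell most (-1.23, adjusted p = 0.000116) and PHOX2A rose most (0.75, adjusted p = 0.000693). The mean level of the 9 lay between 8.97 and 9.08 on the NCT-503 arrays and between 9.04 and 9.14 on the DMSO arrays. Among markers of other cell types, 2 fibroblast genes (1 called lower), 3 Schwann genes, 2 endothelial genes and 2 immune genes were measured. CD68, a lysosomal protein used as a macrophage marker, rose by 2.25 ± 0.10 (adjusted p = 1.53e-05), whereas CD14 did not pass (-0.09, adjusted p = 0.775). Their part in the changes of the antioxidant genes was not tested. The 75th percentile over the genes tested lay between 6.64 and 6.70 on the NCT-503 arrays and between 6.73 and 6.76 on the DMSO arrays. Slide and scan date were not analysed here, and fewer cells and less RNA per cell cannot be told apart in such bulk samples.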

How the data were processed

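The submitters' processing notes name Partek for the arrays, with no version, background correction or normalization. The scale of the authors' deposited table was read as log2, since its values ran from 0.578 to 13.6 with no missing cells. Of 31135 rows, 15098 had 1 gene symbol in the platform annotation, matched by Entrez identifier to RefSeq (GRCh38.p14), and 16037 had none. The row with the highest mean represented a gene, which left 14779 genes. No file gave probe backgrounds, so changes of dim genes may be understated, and the 6 arrays limit the precision (median SE 0.105).

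The two-sided test was limma's (version 3.58.1 under R 4.3.3), lmFit then eBayes on both groups with no covariate, and p-values were adjusted by Benjamini-Hochberg over all genes. The step was tested on simulated data. The genes, the 9 pathway lists and the motifs were chosen with earlier results of these data known. The naming rule took the 6 genes, up to 4 called genes with the largest change per list, a fixed set of well-known genes and the 3 nearest genes by pattern. Lists share some genes and were not tested as sets. In the text, genes named to complete a count of 5 or fewer, and also TKTL1 and TKTL2, were picked after their values were seen. No label says that the replicate letters a, b and c mark pairs of samples. Same-letter deviations correlated by 0.004, 0.003 and 0.037, which cannot settle whether the samples were paired. Alternatives covered moderation, array weights, the letter as a block, scaling, filters, rows, single arrays and the threshold.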

Additional observations from a re-analysis of the deposited data

How the results depend on the processing

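NFE2L2, TKT, CAT, GPX4 and GSR kept their direction and their call under all 18 alternatives. HMOX1 kept its direction under all 18 and its call under 13. Its adjusted p was 0.102 without moderation (change 0.54), it missed a threshold of 0.01 (0.0269), and over the 6 fits that each left out 1 array its change ran from 0.40 to 0.64. In limma, 2419 genes were higher and 2534 lower. With a threshold of 0.01 these counts were 1226 and 1682, and the called genes of the 9 pathway lists, each counted once, were 24 and not 44. With every row of the table, named or not, 4100 rows were lower; more rows were tested. When single arrays were left out, 1749 to 2100 genes were higher, 2103 to 2266 lower, and 30 to 40 listed genes were called. With arrays centred on the 75th percentile, 3345 genes were higher and 2189 lower, so higher calls made up a larger share, and the median change was 0.13 and not 0.06. With the replicate letter as a block, 2108 genes were higher and 2327 lower, 40 listed genes were called, and all 6 genes kept their call (HMOX1 adjusted p = 0.0413). Estimates near 0 changed sign for MAFG and SRXN1, which did not pass. MAFG was 0.0377 with median centring, 0.0640 with 75th-percentile centring and 0.0804 with quantile normalization, and ran from -0.0388 to 0.0176 with 1 array left out. SRXN1 was -0.0104 with array weights and ran from -0.0302 to 0.146 with 1 array left out. For the 50 other genes named from the lists, 753 of 888 fits kept direction and call, 117 lost the call, 8 gained it and 10 changed sign. The cause of these shifts was not tested.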
